A study of Danio rerio and Xiphophorus maculatus with 12 samples.

Results

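Genes of fatty acid oxidation and the tricarboxylic acid (TCA) cycle were followed in the ventricles of zebrafish and platyfish, uninjured or 7 days after cryoinjury. The members were a list of 54 zebrafish gene symbols covering TCA cycle enzymes, pyruvate dehydrogenase and its kinases, mitochondrial beta-oxidation, fatty acid uptake and the carnitine shuttle, and regulators of this metabolism. Among 32520 genes listed for zebrafish, 55 carried these symbols, since fh occurred as 2 genes. Among 24209 genes listed for platyfish, 52 matched 49 of the symbols; ogdha, pdk2b, pdk3b, hadhaa and cpt1aa had no gene of that name there, and idh2, dlst and acadl had 2 genes each. All fish were adult and of the wild-type genotype, and the sampled tissue was the heart ventricle with its mixed cell types, the atrium and bulbus arteriosus having been cut away. The 4 groups were uninjured zebrafish, cryoinjured zebrafish, uninjured platyfish and cryoinjured platyfish; the uninjured fish had not been operated on, so the operation and the freezing cannot be told apart. Cryoinjury kills part of the ventricle wall with a frozen probe. Each group had 3 libraries of poly(A) RNA, each from a pool of 8 ventricles, so the p-values measure the spread between pools and not between single fish.

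In mammals the adult heart muscle cell draws most of its ATP from the mitochondrial oxidation of fatty acids. Fatty acids enter the cell, are bound by fatty acid binding protein, activated to acyl-CoA and carried into the mitochondrion by the carnitine shuttle, where beta-oxidation shortens them to acetyl-CoA. Pyruvate dehydrogenase makes acetyl-CoA from the pyruvate that glycolysis delivers, and the TCA cycle oxidises acetyl-CoA from both sources and passes electrons to the respiratory chain. The transcription of these enzymes is driven in mammals by PPAR-alpha receptors and their coactivators PGC-1alpha and PGC-1beta.

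Total counts ranged from 20735097 to 27994535 per library in zebrafish and from 19073562 to 31148127 in platyfish. Zebrafish cryoinjured libraries 2 and 3 had 16530 and 15976 detected genes, fewer than the 18102 to 18819 of the other zebrafish libraries. Zebrafish cryoinjured library 1 correlated more closely with the uninjured libraries (0.957 to 0.962, across genes) than with its own group (0.941 to 0.945). Cardiomyocyte markers were abundant in every library, which fits the labelled tissue, with a summed level of 52370 to 74190 CPM (counts scaled to a common library total) in zebrafish and 42061 to 48925 in platyfish. Exocrine pancreas markers, 3 of 9 listed, summed to 3.72 to 187 CPM in uninjured platyfish and 3.05 to 7.81 in cryoinjured platyfish. Whether an uninjured platyfish pool held other tissue was not tested. Levels are given below as normalised counts, in which counts are corrected for the TMM effective size of each library; they compare libraries of one species for one gene, not one gene with another. A gene was called when edgeR's quasi-likelihood test gave a Benjamini-Hochberg adjusted p under 0.05 over all tested genes of that species.

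In both species most members had lower mean levels after injury, with a median of 78.9% of the uninjured level in zebrafish and 80.4% in platyfish, and few passed the test one by one. The summed counts of the members made up 2.07%, 1.98% and 1.96% of the counts in uninjured zebrafish libraries 1 to 3 and 1.94%, 1.64% and 1.67% in the cryoinjured ones. In platyfish the share was 1.39%, 1.36% and 1.16% in uninjured libraries and 0.855%, 1.01% and 1.00% in cryoinjured ones. The groups did not overlap in either species, though in zebrafish cryoinjured library 1 lay just below the lowest uninjured library. Such sums are weighted by the most abundant members, idh2 in both species and mdh2 in zebrafish. The medians over members, given below, overlapped between the platyfish groups. The median log2 fold change was -0.34 over the 52 tested zebrafish members and -0.32 over the 48 tested platyfish members, beside -0.02 and 0.01 over all tested genes. In zebrafish 43 of the 52 had a log2 fold change below 0 (51.6% of all tested genes did), and in platyfish 35 of 48 (49.2% of all). A member was tested when it passed a filter on low counts, which pdha1b, pdk3b and cd36 did not in zebrafish and ogdhb, acsl1b, cd36 and the chromosome 15 copy of dlst did not in platyfish. With bulk tissue, fewer heart muscle cells in the pool and less of these transcripts per cell cannot be told apart.

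Of the zebrafish members 2 were called lower and 0 higher, where 0.304% of all 13470 tested genes were called lower and 0.676% higher. At an unadjusted p under 0.05, 28 zebrafish members were lower (7.15% of all genes) and 1 was higher (8.31% of all). All cryoinjured libraries lay below all uninjured ones for 28 members, which held for 10.9% of all tested genes. In platyfish 2 members were called lower (1.22% of all 15226 tested genes) and 0 higher (2.7% of all). At an unadjusted p under 0.05, 15 platyfish members were lower (10.9% of all genes) and 1 was higher (13.2% of all), and 13 members were lower without overlap (13.6% of all genes). The called members were idh2 and fh in zebrafish and lpin1 and pparab in platyfish, where the abundant idh2 copy narrowly missed the threshold. With DESeq2 the called members came to 8 lower and 1 higher in zebrafish and to 13 lower and 0 higher in platyfish. Calls rose over all genes too, to 223 lower and 360 higher of 13470 in zebrafish. In platyfish DESeq2 called 770 lower and 920 higher of 15226. The authors' deposited table gives an adjusted p under 0.05 for 7 lower members and 1 higher in zebrafish and for 13 lower and 0 higher in platyfish. The share of all genes passing in the authors' comparison was not counted here, so nothing particular to the members is read from those counts. Scaling by library size alone moved the median of all genes to 0.16 in zebrafish and 0.14 in platyfish; relative to that, the members' median was -0.33 in both species. Under that scaling 0 zebrafish members were called lower and 1 (pdk2b) higher, beside 5 lower and 224 higher among all 13470 tested genes. In platyfish 4 members were called lower, beside 104 of all 15226 tested genes. With 1 zebrafish library left out, the members called lower were 0 without uninjured 3, cryoinjured 2 or cryoinjured 3. There 1 of 14080, 2 of 13965 and 5 of 13915 tested genes were called lower. They were 1 without uninjured 1 or 2, beside 4 of 14056 and 37 of 14044 tested genes. Without cryoinjured 1 they were 3, beside 123 of 13884 tested genes. Without cryoinjured 2 and 3 together the members' median log2 fold change was -0.26. In platyfish the members called lower were 8 without uninjured library 3, where 435 of all 15536 tested genes were called lower. They were 2 without cryoinjured 2, beside 121 of 15527 tested genes, and 1 without any other single library. Without uninjured 1 or 2, 6 of 15565 and 9 of 15564 tested genes were called lower. Without cryoinjured 1 or 3 it was 36 of 15487 and 14 of 15530. When replicate number entered as a block, 1 member was called lower, beside 53 of 15226 tested genes.

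**Figure D1:**
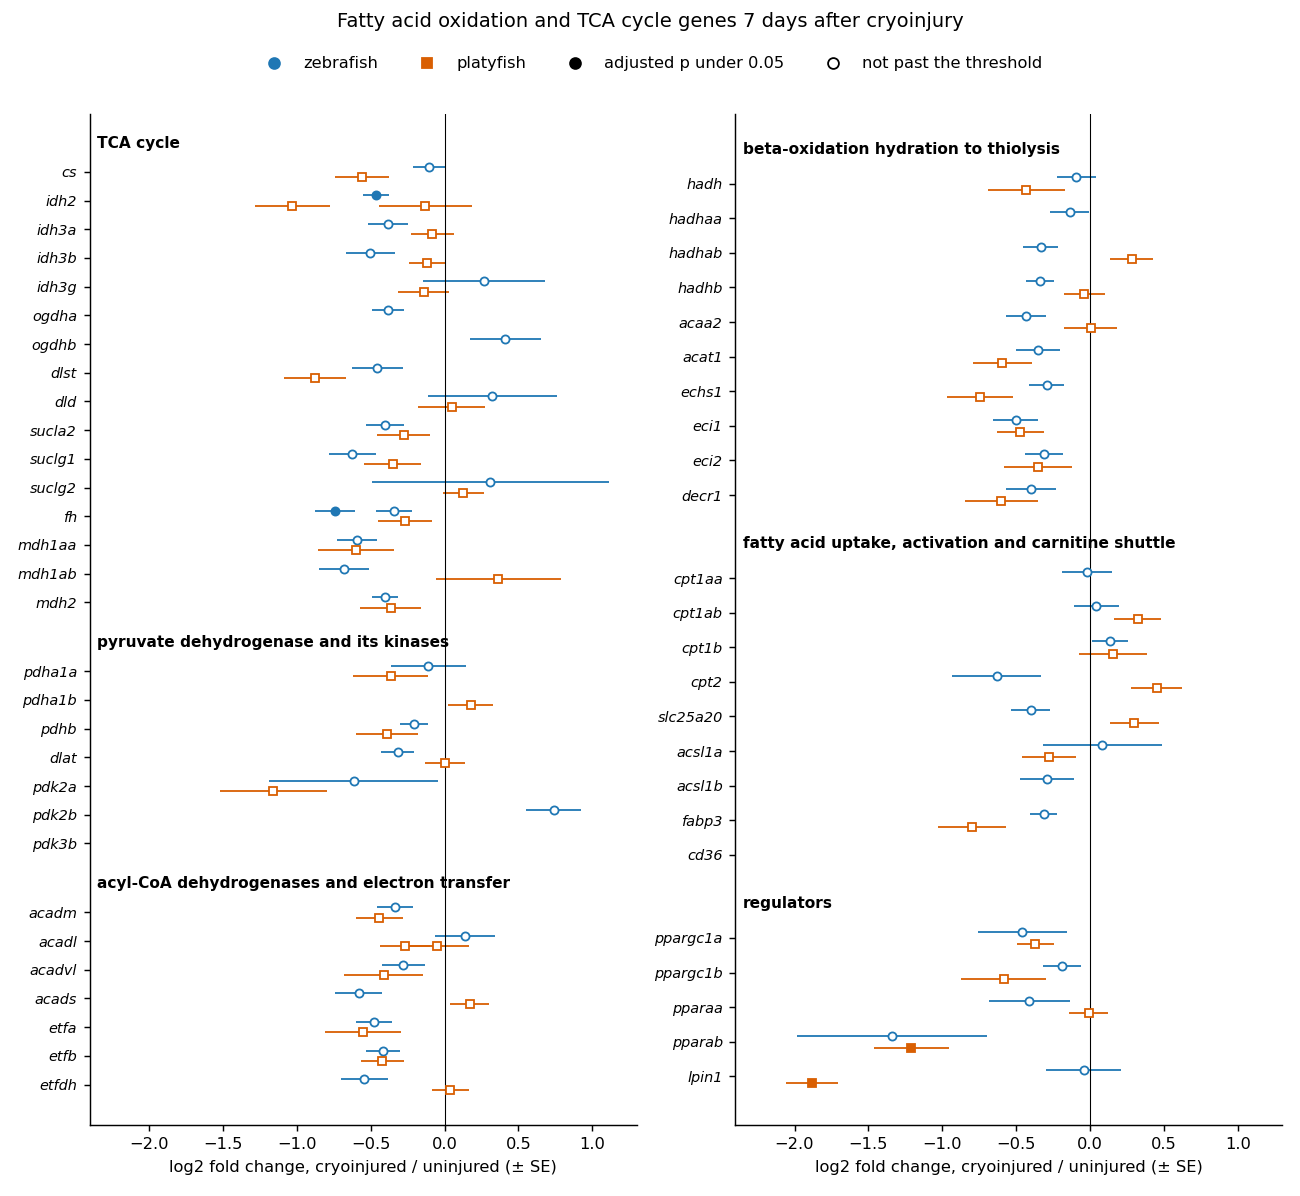
Log2 fold change of each tested member, cryoinjured against uninjured, with its standard error on the x axis and the genes by role on the y axis; circles are zebrafish, squares platyfish, filled symbols are called. Most symbols lie left of 0 in both species, and in platyfish lpin1 lies farthest left at -1.88.

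The per-library medians show which pools carried the lower values. Each member's log2 value was taken as a deviation from its mean over the 6 libraries of its species. The median deviation over the zebrafish members was 0.22, 0.11 and 0.12 in the uninjured libraries and -0.06, -0.19 and -0.26 in the cryoinjured ones, and the groups did not overlap. In platyfish it was 0.27, 0.24 and -0.04 in the uninjured libraries and -0.32, -0.14 and 0.04 in the cryoinjured ones, so uninjured library 3 lay below cryoinjured library 3. Without platyfish uninjured library 3, 8 members and 435 of all 15536 tested genes were called lower. Without cryoinjured library 1 the median log2 fold change of the platyfish members was -0.21.

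**Figure D2:**
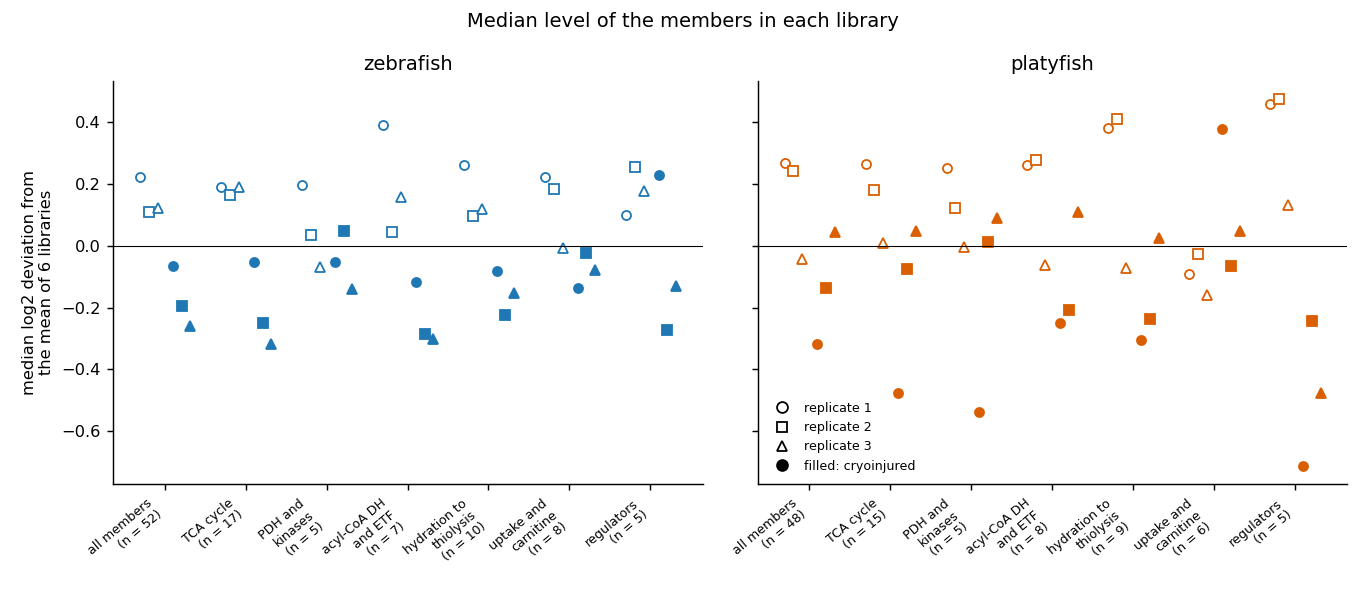
Median log2 deviation of the members from the mean of the 6 libraries of a species (y axis), for all members and for each role (x axis), with 1 symbol per library; open symbols are uninjured and filled ones cryoinjured. For all members the zebrafish groups separate and the platyfish groups overlap, with uninjured library 3 at -0.04 and cryoinjured library 3 at 0.04.

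The TCA cycle was the role with both called zebrafish members. Of its 17 tested zebrafish genes 13 had a log2 fold change below 0, 2 were called lower, and the median was -0.40. In platyfish 12 of 15 were below 0, 0 were called in either direction, 4 were lower at an unadjusted p under 0.05, and the median was -0.27. Over all tested genes 51.6% in zebrafish and 49.2% in platyfish were below 0. In zebrafish 0.304% were called lower, and in platyfish 10.9% were lower at that unadjusted p. The mitochondrial, NADP-dependent isocitrate dehydrogenase gene idh2 (ENSDARG00000003795, chromosome 18) had 112276, 120248 and 108645 normalised counts in uninjured zebrafish and 80142, 87652 and 79706 after injury. No cryoinjured library reached the lowest uninjured one. Its mean fell from 113723 ± 5935 to 82500.2 ± 4467 (SD, n = 3), a log2 fold change of -0.46 ± 0.09 (SE, edgeR adjusted p = 0.0374). The call was lost without any one of uninjured libraries 1, 2 or 3 (adjusted p = 0.140, 0.0936 and 0.101) or cryoinjured libraries 2 or 3 (0.119 and 0.162), and with scaling by library size (0.123), while the log2 fold change stayed between -0.29 and -0.52.

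Platyfish had 2 genes of that name. The abundant idh2 copy (ENSXMAG00000002871, chromosome 2) had 90596, 99842 and 61320.3 normalised counts in uninjured platyfish and 30652, 42553 and 50004 after injury. The groups did not overlap, but uninjured library 3 lay nearer to the cryoinjured libraries than to the other uninjured ones. The mean was 83919.6 ± 20110.1 before and 41070.0 ± 9761 after injury (SD, n = 3), a log2 fold change of -1.03 ± 0.25 that missed the threshold (edgeR adjusted p = 0.0592). It passed with DESeq2 (0.000754), which called idh2 in both species, with library size scaling (0.0165), without the filter on low counts (0.0378) and without uninjured library 3 (0.0291), and in the other 8 of 12 alternatives it did not (up to 0.178). The other idh2 copy, on chromosome 4, was far rarer, at 54.2 to 71.7 normalised counts in uninjured and 36.7 to 70.4 in cryoinjured libraries. With the copies summed, the idh2 response of zebrafish was 0.58 ± 0.28 above that of platyfish on the log2 scale (edgeR adjusted p = 0.274).

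Fumarase, which turns fumarate into malate, is encoded by fh, and zebrafish had 2 genes of that name. The copy on the unplaced scaffold KZ116043.1 (ENSDARG00000109774) had 1881, 2468 and 2394 normalised counts in uninjured zebrafish and 1291, 1358 and 1390.4 after injury. All cryoinjured libraries were below the lowest uninjured one. Its mean fell from 2248 ± 320.0 to 1347 ± 50.5 (SD, n = 3), that is to 59.9% of the uninjured level (log2 fold change -0.74 ± 0.14 SE, edgeR adjusted p = 0.0367). Among single left-out libraries the call held only without uninjured library 1 (0.0322); without uninjured 2 or 3 the adjusted p was 0.0811 and 0.124, and without cryoinjured 1, 2 or 3 it was 0.0580, 0.174 and 0.122. With library size scaling it was 0.0904. The copy on chromosome 12 (ENSDARG00000075132) had 5439, 5346 and 5365 counts before and 4329.7, 4720.4 and 3675 after injury, a log2 fold change of -0.34 ± 0.12 (adjusted p = 0.217). Reads of such copies may have been split between them, so the values of each copy are uncertain. The single platyfish fh gene differed by -0.27 ± 0.18 (adjusted p = 0.406).

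Citrate synthase, the enzyme that brings acetyl-CoA into the cycle, is often used as a measure of mitochondrial content. Zebrafish cs had 32888, 29117 and 28722 normalised counts uninjured and 24834, 29314 and 30285 cryoinjured, and the groups overlapped (log2 fold change -0.10 ± 0.11, edgeR adjusted p = 0.692). Platyfish cs had 24645, 24689.7 and 18699.7 uninjured and 13490.2, 16404 and 16354 cryoinjured, without overlap (-0.56 ± 0.18, adjusted p = 0.111). The difference between the responses was 0.47 ± 0.21, with an adjusted p of 0.244, so it did not pass the test. The NAD-dependent isocitrate dehydrogenase subunits idh3a and idh3b were lower in every cryoinjured zebrafish library (-0.38 ± 0.13 and -0.50 ± 0.17) without passing the test (adjusted p = 0.216 and 0.193). Their platyfish counterparts differed by -0.08 and -0.12, and the low-count subunit idh3g by 0.27 ± 0.41 in zebrafish and -0.14 ± 0.17 in platyfish.

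The oxoglutarate dehydrogenase complex makes succinyl-CoA. Its core, which carries the lipoyl arm, is encoded by dlst. The chromosome 19 copy of dlst (ENSXMAG00000014638) had 12315, 13489 and 9001 normalised counts in uninjured platyfish and 5001, 6992 and 6959 after injury, without overlap. The means were 11602 ± 2327 and 6317 ± 1140.2 (SD, n = 3), a log2 fold change of -0.88 ± 0.21 with an edgeR adjusted p of 0.0544, just outside the threshold. Zebrafish dlst differed by -0.46 ± 0.17 (adjusted p = 0.250), and with copies summed the responses of the 2 species differed by 0.44 ± 0.28 (adjusted p = 0.427). The first subunit ogdha was lower in every cryoinjured zebrafish library (-0.38 ± 0.11, adjusted p = 0.137), while its paralog ogdhb, at 93.2 to 163 normalised counts, overlapped between groups (0.41 ± 0.24). The listed symbol dld, counted here with the TCA cycle role, names the Notch ligand deltaD in zebrafish and not dihydrolipoamide dehydrogenase. Its groups overlapped in both species, and its values are not read for this complex.

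Succinyl-CoA ligase and malate dehydrogenase complete the cycle. The alpha subunit of the ligase, suclg1, had 6049.6, 4122 and 5798 normalised counts in uninjured zebrafish and 3818, 3479.9 and 3067 after injury, without overlap (log2 fold change -0.62 ± 0.16, edgeR adjusted p = 0.0975). In platyfish suclg1 differed by -0.35 ± 0.19 with overlapping groups. Mitochondrial malate dehydrogenase, mdh2, had 127746, 131008 and 128665 in uninjured zebrafish and 100214, 104177 and 88744 after injury (-0.40 ± 0.09, adjusted p = 0.0643). The cytosolic enzyme mdh1aa, part of the malate shuttle, had 28999, 28834 and 27306 before and 23024, 16037 and 17376 after injury in zebrafish (-0.59 ± 0.13, adjusted p = 0.0697). Its paralog mdh1ab (ENSDARG00000103849, chromosome 17) had 4868, 3451 and 4424 before and 3226, 2295 and 2428 after injury, means of 4248 ± 725 and 2649.8 ± 503 (SD, n = 3), and a log2 fold change of -0.68 ± 0.17 (adjusted p = 0.0915). None of these 4 zebrafish genes overlapped between groups, and none passed the threshold. In platyfish mdh1aa and mdh2 differed by -0.60 ± 0.26 and -0.36 ± 0.21 with overlapping groups, and the far rarer mdh1ab by 0.36 ± 0.42.

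Pyruvate dehydrogenase is switched off by its kinases, which phosphorylate it. Of the 5 tested members of this role, 4 in zebrafish and 3 in platyfish had a log2 fold change below 0. The medians were -0.20 and -0.36, with 0 calls in either species. This role joins subunits of the enzyme with its kinases, so its median says nothing about either alone. The catalytic core gene dlat had 10679.8, 10393 and 10186 normalised counts in uninjured and 7296, 8803 and 9003 in cryoinjured zebrafish (-0.32 ± 0.11, edgeR adjusted p = 0.217), and in platyfish it differed by 0.00 ± 0.13. The E1 subunit pdhb differed by -0.20 ± 0.09 in zebrafish and -0.39 ± 0.21 in platyfish, and pdha1a by -0.11 ± 0.25 and -0.36 ± 0.25.

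The kinase pdk2b (ENSDARG00000059054, chromosome 19) was the zebrafish member with higher values in every cryoinjured library. It had 1216, 1169 and 1048 normalised counts uninjured and 1486, 2491 and 1749.5 cryoinjured. The means were 1144 ± 87.1 and 1909 ± 521 (SD, n = 3), 167% of the uninjured level, with a log2 fold change of 0.74 ± 0.18 and an edgeR adjusted p of 0.0915. It passed the threshold with DESeq2, with library size scaling, without the filter on low counts and without cryoinjured library 1. The paralog pdk2a had 5664, 2903 and 2076 uninjured and 1116, 3738 and 2097 cryoinjured in zebrafish, a spread within each group wider than the difference between them (-0.62 ± 0.57, adjusted p = 0.669). Platyfish pdk2a (ENSXMAG00000014954, chromosome 10) had 13545, 29722 and 10481 uninjured and 7284, 8916 and 7887 cryoinjured. The groups did not overlap, and uninjured library 2 stood apart with more than any other library. The means were 17916 ± 10338 and 8029 ± 825 (SD, n = 3), a log2 fold change of -1.16 ± 0.36 (adjusted p = 0.108), and without uninjured library 2 it was -0.59.

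The acyl-CoA dehydrogenases carry out the first step of each beta-oxidation round, and the electron transfer flavoprotein (etfa, etfb) and its dehydrogenase (etfdh) take their electrons to the respiratory chain. In zebrafish 6 of 7 genes of this role had a log2 fold change below 0, 5 at an unadjusted p under 0.05 and 5 without overlap, with a median of -0.42 and 0 calls. In platyfish 6 of 8 were below 0, 2 at an unadjusted p under 0.05, with a median of -0.34 and 0 calls. Over all tested genes 7.15% in zebrafish and 10.9% in platyfish were lower at that unadjusted p. In zebrafish 10.9% of all tested genes were lower without overlap. The flavoprotein subunit etfa had 5227, 4403 and 4421 normalised counts in uninjured and 3486, 3128 and 3489 in cryoinjured zebrafish (-0.48 ± 0.12, edgeR adjusted p = 0.0934). Its partner etfb differed by -0.42 ± 0.12 in zebrafish and by -0.42 ± 0.15 in platyfish, without overlap in either (adjusted p = 0.126 and 0.130). The medium-chain enzyme acadm also had non-overlapping groups in both species, at -0.33 ± 0.12 and -0.44 ± 0.16 (adjusted p = 0.229 and 0.140).

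The short-chain enzyme acads and etfdh had log2 fold changes of opposite sign in the 2 species, none of them called. Zebrafish acads had 2266, 1552 and 1790.1 normalised counts uninjured and 1387, 1163 and 1199 cryoinjured (-0.58 ± 0.16, edgeR adjusted p = 0.117). Platyfish acads had 1683, 1507 and 1672 uninjured and 1994, 1630 and 1842 cryoinjured, with overlap (0.17 ± 0.13, adjusted p = 0.477). For etfdh the log2 fold changes were -0.54 ± 0.16 and 0.04 ± 0.13, and the platyfish value was -0.05 without uninjured library 3. Neither difference between species passed the test (edgeR adjusted p = 0.0961 for acads and 0.182 for etfdh). With DESeq2 the acads difference passed the threshold. The very-long-chain enzyme acadvl differed by -0.28 ± 0.15 and -0.41 ± 0.27 with overlap in both species, and the long-chain enzyme acadl by 0.14 ± 0.20 in zebrafish and by -0.05 and -0.27 for its 2 genes in platyfish.

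The later steps of beta-oxidation, from hydration of the double bond to cleavage by thiolase, had log2 fold changes below 0 for all 10 zebrafish genes, 8 of them at an unadjusted p under 0.05, with a median of -0.34 and 0 calls. In platyfish 7 of 9 were below 0, 4 at an unadjusted p under 0.05, with a median of -0.43 and 0 calls. Over all tested genes 7.15% in zebrafish and 10.9% in platyfish were lower at that unadjusted p. The trifunctional protein joins 3 of these steps in 1 complex. Its beta subunit hadhb had 13268, 12509 and 12236 normalised counts in uninjured and 10170.2, 9726 and 10164 in cryoinjured zebrafish (-0.34 ± 0.09, edgeR adjusted p = 0.126), and differed by -0.04 ± 0.14 in platyfish. The alpha subunit gene hadhaa had 7268, 6683 and 6316 before and 7244, 5432 and 5736 after injury in zebrafish, with overlap (-0.14 ± 0.13, adjusted p = 0.659).

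The other alpha subunit gene, hadhab, had log2 fold changes of opposite sign in the 2 species, neither past the threshold. Zebrafish hadhab had 7056, 6028 and 5851 normalised counts before and 5276, 5078 and 4655 after injury (-0.34 ± 0.12, edgeR adjusted p = 0.216). Platyfish hadhab had 5410.0, 4380.1 and 5422 before and 6202, 6063 and 6205 after injury, every cryoinjured library above every uninjured one (0.28 ± 0.15, adjusted p = 0.281). The short-chain enoyl-CoA hydratase gene echs1 had 6007, 5092 and 3523 before and 2339, 2957 and 3438 after injury in platyfish (-0.74 ± 0.22, adjusted p = 0.0946), with uninjured library 3 close to cryoinjured library 3. In zebrafish echs1 differed by -0.29 ± 0.12 (adjusted p = 0.263). The isomerase eci1, needed for unsaturated fatty acids, had non-overlapping groups in both species (-0.51 ± 0.15 and -0.47 ± 0.16, adjusted p = 0.147 and 0.120). The thiolase acaa2 differed by -0.44 ± 0.13 in zebrafish and 0.00 ± 0.18 in platyfish, and the acetoacetyl-CoA thiolase acat1 by -0.35 ± 0.15 and -0.59 ± 0.20.

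For fatty acid uptake, activation and the carnitine shuttle the medians lay nearer to 0 or above it. The median was -0.16 over 8 zebrafish genes, 5 of them below 0. With library size scaling it was 0.02, where the median of all tested zebrafish genes was 0.16. In platyfish the median was 0.23 over 6 genes, 2 of them below 0. No gene of this role was called in either species. Carnitine palmitoyltransferase 1, in the outer mitochondrial membrane, controls entry of long-chain fatty acids; its muscle form cpt1b had 2031, 1818 and 1886 normalised counts in uninjured and 2037, 1944 and 2300.2 in cryoinjured zebrafish (0.13 ± 0.12, edgeR adjusted p = 0.653). Platyfish cpt1b had 598, 1005 and 616 before and 978, 662 and 832 after injury (0.16 ± 0.23, adjusted p = 0.716). Groups overlapped in both species. The form cpt1ab differed by 0.04 ± 0.15 in zebrafish; in platyfish it had 4609, 4124 and 4088 before and 6273, 4738 and 5018 after injury, without overlap but short of the threshold (0.32 ± 0.16, adjusted p = 0.251).

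The inner membrane partners of the shuttle were lower after injury in zebrafish and higher in platyfish, none of them called. Zebrafish cpt2 (ENSDARG00000038618, chromosome 8) had 172, 197 and 171 normalised counts before and 137, 145 and 65.7 after injury, means of 180.1 ± 14.5 and 116 ± 43.7 (SD, n = 3), without overlap and with cryoinjured library 3 the lowest (-0.63 ± 0.30, edgeR adjusted p = 0.346). Platyfish cpt2 had 525, 497 and 655 before and 877, 617 and 796 after injury, with overlap (0.45 ± 0.17, adjusted p = 0.157). The carnitine-acylcarnitine translocase gene slc25a20 had 779, 733 and 652 before and 574, 537 and 526 after injury in zebrafish (-0.40 ± 0.13, adjusted p = 0.193). In platyfish slc25a20 had 1149, 1232 and 1061 before and 1745, 1209 and 1282 after injury, where cryoinjured library 1 was the highest and the groups overlapped (0.30 ± 0.16, adjusted p = 0.302).

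Heart-type fatty acid binding protein, which carries fatty acids through the cytosol, is encoded by fabp3. It had 31573, 29596 and 28489 normalised counts in uninjured and 23234, 25123 and 23789.5 in cryoinjured zebrafish, without overlap (-0.31 ± 0.09, edgeR adjusted p = 0.141). Platyfish fabp3 had 38340.3, 42638 and 24383 before and 17496, 20144 and 22875 after injury, also without overlap, although uninjured library 3 was close to cryoinjured library 3 (-0.80 ± 0.23, adjusted p = 0.0872). The acyl-CoA synthetase genes differed in which paralog was counted in each fish. In zebrafish acsl1b had 10842 to 20070.1 normalised counts per library and acsl1a 29.6 to 68.2, whereas in platyfish acsl1a had 6963 to 11836 and acsl1b 1.02 to 11.1. Groups of acsl1a and acsl1b overlapped in both species. The fatty acid transporter gene cd36 had 0 counts in all platyfish libraries, where 3 counts would correspond to 0.0963 to 0.157 CPM, and counts in 1 zebrafish library alone (3.28 normalised counts in cryoinjured library 3). Such limits cover counting error only.

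All 5 regulator genes had log2 fold changes below 0 in both species. The medians were -0.41 in zebrafish, where 0 were called, and -0.59 in platyfish, where 2 were called lower. Over all tested platyfish genes 1.22% were called lower. Zebrafish lpin1 (-0.04) and platyfish pparaa (-0.01) lay near 0 and changed sign in 4 of 13 and 4 of 12 alternative fits. Lipin 1, the product of lpin1, is a phosphatidate phosphatase that in mammals also coactivates PPAR-alpha with PGC-1alpha. Platyfish lpin1 (ENSXMAG00000017520, chromosome 4) had 899.7, 1302 and 1103 normalised counts uninjured and 309, 257 and 329.9 cryoinjured, a gap wider than either group's own range. It fell to 27.1% of the uninjured level (log2 fold change -1.88 ± 0.18, edgeR adjusted p = 0.00444), and it was called in 12 of 12 alternative fits, with log2 fold changes from -2.02 to -1.75. Zebrafish lpin1 (ENSDARG00000020239, chromosome 17) had 297, 377 and 191 uninjured and 328, 229 and 282 cryoinjured. The zebrafish groups overlapped fully, with means of 289 ± 93.2 and 279.9 ± 49.2 (SD, n = 3). The log2 fold change was -0.04 ± 0.25 (edgeR adjusted p = 0.955). With library size scaling it was 0.15, beside a median of 0.16 over all tested zebrafish genes.

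The PPAR-alpha paralog pparab (ENSXMAG00000009657, chromosome 2) was the other called platyfish regulator. It had 131, 122 and 97.3 normalised counts uninjured and 43.2, 62.0 and 45.9 cryoinjured, without overlap. Its mean fell from 117 ± 17.4 to 50.4 ± 10.2 (SD, n = 3; log2 fold change -1.21 ± 0.25 SE, edgeR adjusted p = 0.0386). The call was lost without uninjured library 1 or 2 (adjusted p = 0.149 and 0.116), without cryoinjured library 1 or 3 (0.0981 and 0.127), with library size scaling (0.0657), and when the numbered replicates entered as a block (0.0805). In zebrafish pparab (ENSDARG00000054323, chromosome 25) had 45.4, 45.1 and 238 uninjured and 34.6, 41.6 and 53.6 cryoinjured. Uninjured library 3 alone carried the high value: the means of 109.5 ± 111 and 43.3 ± 9.62 (SD, n = 3) gave -1.34 ± 0.64 (adjusted p = 0.362), and without that library the log2 fold change was -0.07. The paralog pparaa differed by -0.41 ± 0.27 in zebrafish and by -0.01 ± 0.13 in platyfish, with overlap in both.

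The coactivator gene ppargc1a had narrow groups in platyfish, with 2543, 2554 and 2409 normalised counts uninjured and 2015, 1857 and 1934 cryoinjured. The groups did not overlap, and the log2 fold change of -0.37 ± 0.12 did not pass the threshold (edgeR adjusted p = 0.117). Zebrafish ppargc1a had 147, 197 and 255 uninjured and 201, 102 and 132 cryoinjured, with overlap (-0.46 ± 0.30, adjusted p = 0.503). The related coactivator ppargc1b differed by -0.19 ± 0.13 in zebrafish and -0.59 ± 0.29 in platyfish, also with overlap.

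**Figure D3:**
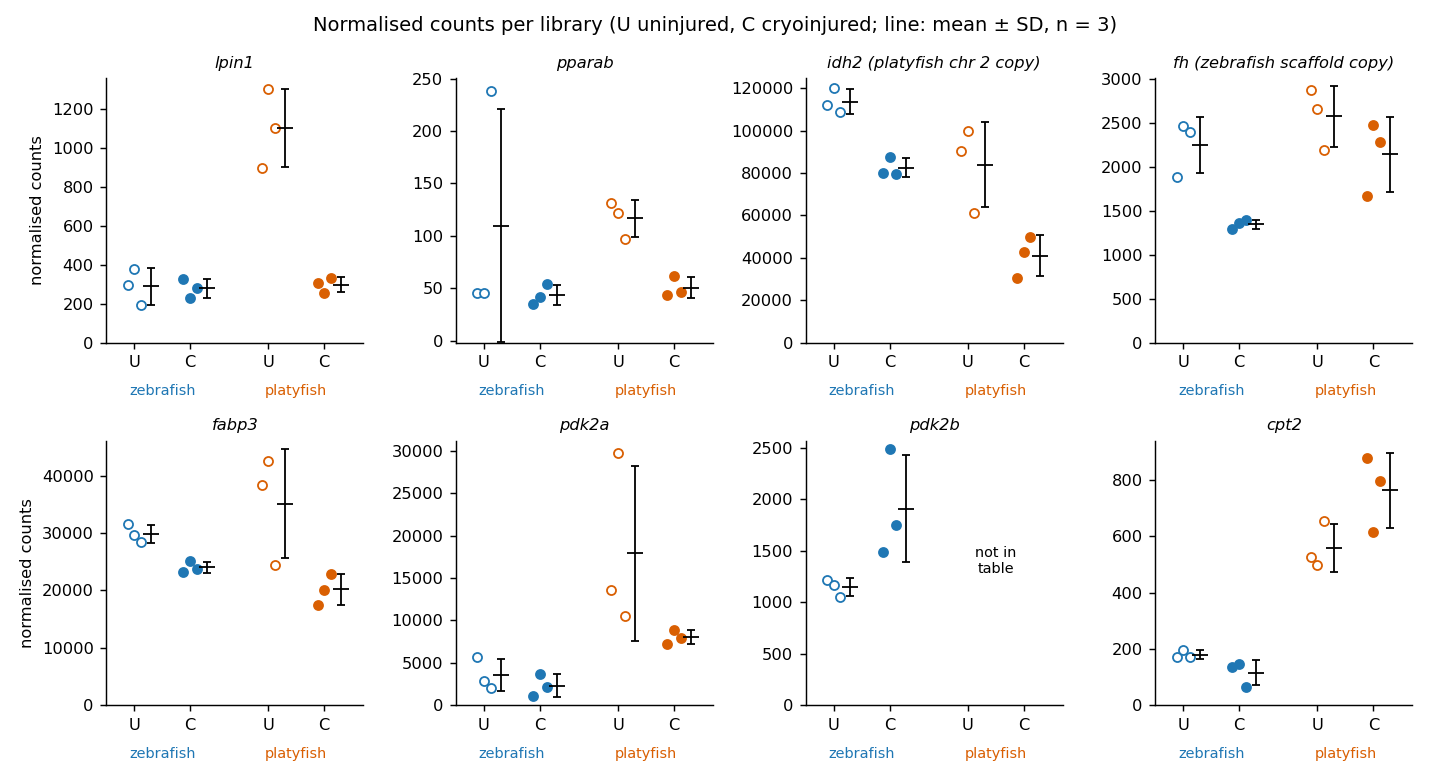
Normalised counts (y axis) of 8 members in every library, by species and group (x axis, U uninjured, C cryoinjured), with the mean and SD of 3 libraries. The y axis starts at 0, or just below it for pparab, where the SD in uninjured zebrafish exceeds the mean. Platyfish lpin1 falls from 899.7 or more to 329.9 or less, zebrafish lpin1 overlaps between groups, and 1 uninjured zebrafish library sets the pparab mean.

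The difference between the 2 injury responses was tested directly for the 41 members whose symbol occurred once in each table, among 8098 genes matched by symbol, which does not establish orthology. One member, lpin1, passed the threshold, where 2.54% of all matched genes did: its response in zebrafish was 1.86 ± 0.33 above that in platyfish on the log2 scale (edgeR adjusted p = 0.0163). Without zebrafish cryoinjured libraries 2 and 3, those with fewer detected genes, the lpin1 difference was 2.07 and the adjusted p 0.0546. At an unadjusted p under 0.05 there were 7 members, close to the 19.4% of all matched genes. Of these, acads (-0.73 ± 0.22, adjusted p = 0.0961), slc25a20 (-0.68 ± 0.21, 0.108), hadhab (-0.59 ± 0.19, 0.116), cpt2 (-1.06 ± 0.35, 0.119) and etfdh (-0.56 ± 0.22, 0.182) were lower in the zebrafish response, and cs was lower in the platyfish response. With DESeq2 acads and hadhab also passed the threshold, beside 629 called of all 8098 matched genes. The cytosolic mdh1ab differed by -1.02 ± 0.48 (edgeR adjusted p = 0.265). Over all 41 members the median difference was 0.02, beside -0.03 over all matched genes, with 21 members above 0 (47.9% of all genes). The pairs etfa, etfb, mdh1aa, mdh2, eci1 and cpt1b differed by 0.09 ± 0.31, 0.03 ± 0.19, 0.02 ± 0.31, -0.02 ± 0.24, -0.01 ± 0.23 and 0.00 ± 0.28. Their 95% intervals by the normal approximation were wide, at -0.52 to 0.71 for etfa and -0.35 to 0.41 for etfb. Differences of such sizes in either direction remain possible.

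**Figure D4:**
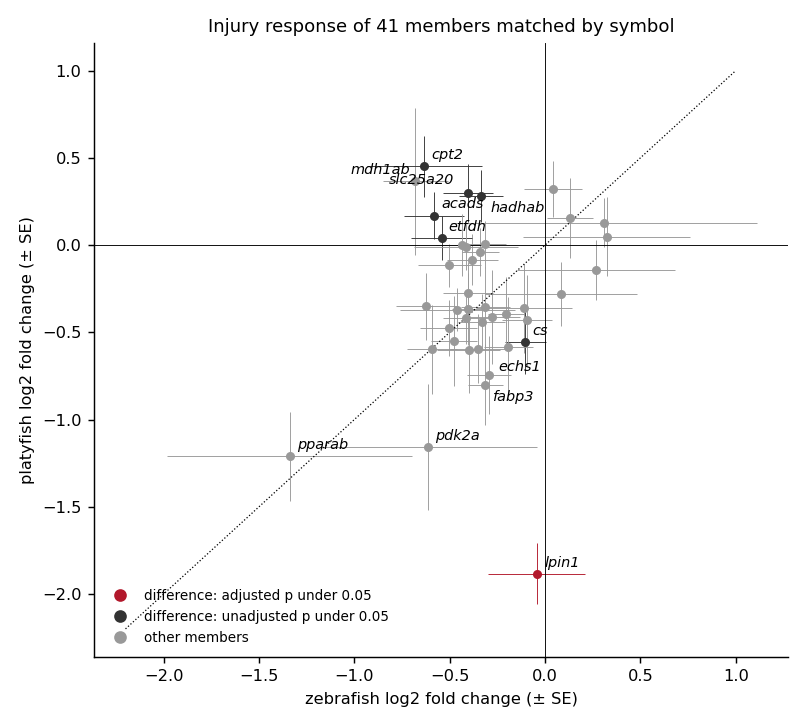
Log2 fold change (cryoinjured against uninjured, ± SE) of the 41 matched members in zebrafish (x axis) and platyfish (y axis); the dotted line marks equal responses, red marks a difference past the threshold and black one with an unadjusted p under 0.05. Most members lie below 0 on both axes, and lpin1 lies farthest from the line, with a difference of 1.86.

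Other genes of the same pathways, 104 further symbols, showed medians of -0.34 over 74 tested zebrafish genes (3 called lower, 1 higher) and -0.16 over 85 tested platyfish genes (2 called lower, 1 higher). In zebrafish the succinate dehydrogenase iron-sulphur subunit sdhb fell by 0.67 on the log2 scale (SE 0.13, edgeR adjusted p = 0.0447). The mitochondrial aspartate aminotransferase got2b fell by 0.60 (SE 0.12, edgeR adjusted p = 0.0424). Whether single calls outside the member list hold in the alternative fits was not tested. Over all zebrafish genes 41 were called lower, and 5 with library size scaling. The 2 platyfish sdhb genes differed by -0.41 ± 0.34 and -0.08 ± 0.15 (adjusted p = 0.493 and 0.773). With copies summed the sdhb responses of the species differed by -0.54 ± 0.22, short of the threshold (adjusted p = 0.200). In platyfish glutamate dehydrogenase, glud1b, which feeds oxoglutarate into the cycle, fell from 24394 ± 2400.1 to 12066 ± 1204 normalised counts (SD, n = 3; log2 fold change -1.02 ± 0.17, adjusted p = 0.0194). Zebrafish glud1b differed by -0.34 ± 0.11 (adjusted p = 0.178), and the difference between species missed the threshold (0.69 ± 0.19, adjusted p = 0.0661). Without a test of the lists, the 21 further genes of fatty acid oxidation in zebrafish had a median of -0.49 and the 22 in platyfish -0.13, with 0 calls in either.

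The same values are given for 3 lists outside these pathways. The nuclear genes of the respiratory chain had a median of -0.44 over 82 zebrafish genes (10 called lower, 0 higher) and -0.30 over 74 platyfish genes (1 called lower, 1 higher). Sarcomere genes had medians of -0.34 in zebrafish (3 of 22 called lower, 0 higher) and -0.42 in platyfish (1 of 18 called higher, 0 lower), and glycolysis genes had -0.31 (0 of 26 called) and -0.06 (1 of 23 called lower). Nothing particular to the members is read from their medians. Fibroblast and epicardium-derived markers were higher after injury in both species. Summed macrophage markers overlapped between groups in platyfish but not in zebrafish. Of 16 listed macrophage markers, 15 were found in zebrafish and 8 in platyfish. These sums therefore cover unlike gene sets and are not compared between species. Cardiomyocyte sums cover 10 of 10 listed markers in zebrafish and 7 of 10 in platyfish. Summed cardiomyocyte markers were at 64937 to 74190 CPM in uninjured and 52370 to 64996 in cryoinjured zebrafish (3 of 11 called lower), and at 43778 to 47521 and 42061 to 48925 in platyfish (0 of 7 called). Fibroblast and epicardium-derived markers were at 217 to 245 CPM and 661 to 831 in zebrafish (6 of 13 called higher), and at 273 to 284 and 756 to 1287 in platyfish (8 of 12 called higher). Macrophage and monocyte markers were at 901 to 1417 and 2039 to 2631 CPM in zebrafish (2 of 11 called higher) and at 427 to 775 and 688 to 832 in platyfish (0 of 8 called). The part of these shifts in the members' values was not tested.

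**Figure D5:**
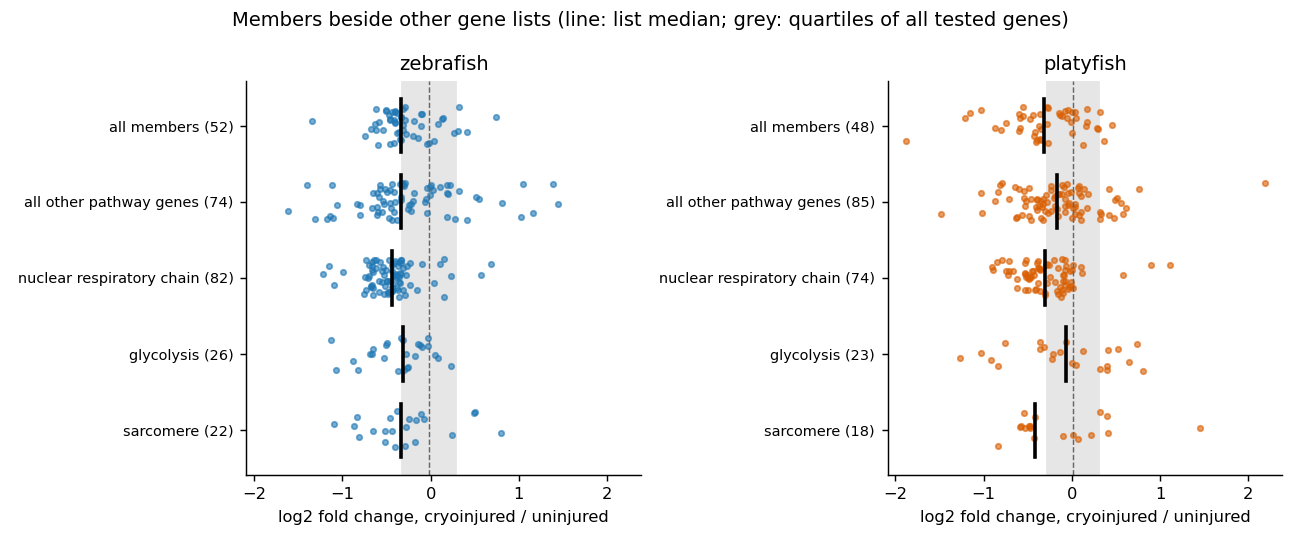
Log2 fold change of every tested gene (x axis) in the members' list, the other pathway genes and 3 comparison lists (y axis, with the number of genes), by species; black lines are list medians and the grey band holds the quartiles of all tested genes. In zebrafish and platyfish the medians are -0.34 and -0.32 for the members and -0.34 and -0.16 for the other pathway genes. They are -0.44 and -0.30 for the respiratory chain, -0.34 and -0.42 for sarcomere genes, and -0.31 and -0.06 for glycolysis genes.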

How the data were processed

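Per the labels' protocols, ventricle RNA was made into stranded mRNA libraries. The submitters' processing notes name FastQC, HISAT2 2.2.1, featureCounts 2.0.1, DESeq2 1.38.3 and the build GRCz11; the platyfish build, annotation and strand setting are not given in the sources used here. The authors deposited raw counts per gene, used here unchanged. They also deposited normalised counts, a signal per gene that equals the raw count times 1 constant per library. Per the file headers, the authors computed log2 fold changes with standard errors from their own comparison. The authors also deposited its test statistic, a score per gene. The p-values and adjusted p-values were computed by the authors, per the file headers, and only their calls were used. No sequence is printed, and 1 called gene outside the member list is not reported here. For cryoinjured platyfish the treatment label says zebrafish; title and organism were followed.

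Each species was fitted with edgeR 4.0.16 in R 4.3.3 (filterByExpr, TMM factors, robust glmQLFit, glmQLFTest), with Benjamini-Hochberg adjustment over all tested genes and a threshold of 0.05. The SE was taken from the estimate and its quasi-likelihood F (estimate over the root of F). The species difference was the contrast of both responses over 12 libraries, for symbols occurring once in each table, with TMM within species. Symbols were present for 32175 of 32520 zebrafish and 16561 of 24209 platyfish IDs. Deviations used a pseudocount of 1. Alternatives were DESeq2 1.42.0, RLE or library size scaling, leaving out mitochondrially encoded genes, no filter, the replicate block and leaving out each library; summed copies and leaving out zebrafish cryoinjured libraries 2 and 3 together were added after seeing the data. Figures were drawn with matplotlib 3.10.9. The fits were tested on simulated data.

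Members, lists and tests were chosen with earlier results of these data known. Full statistics are given for called members and, in each species, for the 5 members with the largest change at a mean of at least 100 normalised counts; cs, cpt1b, hadhaa, fabp3, ppargc1a and lpin1 are given in every library. The labels name the replicate number as the batch. Between same-numbered libraries the deviations from group means had correlations of 0.126, 0.128 and 0.00830 (zebrafish) or -0.0863, -0.184 and -0.175 (platyfish). The fit without the block is reported. Members whose call changed with the block are named, and the blocked adjusted p is given for platyfish pparab. No replicate was a copy of another: the smallest chi-square between replicates was 23.3 per degree of freedom.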

Additional observations from a re-analysis of the deposited data

Results flagged for a closer look

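The injury response of lpin1 differed between the species by the test of the difference itself. Its log2 fold change was 1.86 ± 0.33 (SE) higher in zebrafish than in platyfish (edgeR adjusted p = 0.0163 over 8098 matched genes). Every cryoinjured platyfish library was below every uninjured one, and the zebrafish groups overlapped. The call held in 19 of 20 alternative fits, with differences from 1.63 to 2.11; leaving out zebrafish cryoinjured libraries 2 and 3 together gave 2.07 with an adjusted p of 0.0546.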

How the results depend on the processing

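Against 132 called zebrafish genes, DESeq2 called 583, library size scaling 229, no filter on low counts 517, and leaving out 1 library 29 to 288 (29 without cryoinjured 2, 31 without uninjured 3, 41 without cryoinjured 3, 44 without uninjured 1, 288 without cryoinjured 1). Among zebrafish members, 2 lower and 0 higher became 8 and 1 with DESeq2, 0 and 1 with library size scaling, 11 and 1 without the filter, and 0 to 3 and 0 to 1 with 1 library left out. Without the filter, 247 of all 21820 tested zebrafish genes were called lower and 270 higher. With 1 library left out, the zebrafish genes called lower ranged from 1 of 14080 to 123 of 13884. Library size scaling moved the lower share of zebrafish calls from 31.1% to 2.18% and that of platyfish from 31.2% to 16.0%. It moved the zebrafish members' median from -0.34 to -0.17, and that of all tested zebrafish genes from -0.02 to 0.16. Against 597 called platyfish genes, DESeq2 called 1690 and leaving out 1 library 27 to 1007 (27 without uninjured 1, 62 without uninjured 2, 1007 without uninjured 3, 160 without cryoinjured 1, 56 without cryoinjured 3). Platyfish members called lower, 2, became 13 with DESeq2, 4 with library size scaling, 4 without the filter and 1 to 8 with 1 library left out. Without the filter, 265 of all 20718 tested platyfish genes were called lower. With 1 library left out, the platyfish genes called lower ranged from 6 of 15565 to 435 of 15536. For the species difference, 206 genes and 1 member became 629 and 3 with DESeq2 (acads, hadhab and lpin1). Library size scaling gave 123 genes, and leaving out 1 library gave 70 to 468 genes and 1 to 2 members. With mitochondrially encoded genes out of the total, the members' share was 3.02% uninjured and 2.61% cryoinjured in zebrafish, and 1.64% and 1.18% in platyfish. Leaving out zebrafish cryoinjured libraries 2 and 3 together left 11 called zebrafish genes, 0 called members, and 20 genes and 0 members for the difference; the lone cryoinjured library was then assumed to vary like the others. The cause of these shifts was not tested.

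With the replicate number as a block, 184 zebrafish genes and 3 members (lower) were called, 256 platyfish genes and 1 member, and 81 genes and 1 member for the difference; of the members, pparab in platyfish lost its call and mdh1ab in zebrafish gained one.

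Sign changes touched 12 zebrafish and 12 platyfish members, and 0 of them were called. With library size scaling the zebrafish values became 0.15 for cpt1aa, 0.073 for pdha1a, 0.0799 for hadh, 0.048 for hadhaa, 0.15 for lpin1 and 0.065 for cs. The platyfish values became 0.0501 for idh3a, 0.01003 for idh3b, 0.0062 for idh3g, 0.098 for hadhb, 0.12 for pparaa and 0.11 for the first acadl gene. Under that scaling the median of all tested genes was 0.16 in zebrafish and 0.14 in platyfish. Leaving out both zebrafish libraries gave 0.23 for pdha1a, -0.17 for acsl1a, 0.086 for hadhaa, 0.17 for lpin1, -0.20 for acadl, -0.14 for idh3g, -0.16 for suclg2 and -0.16 for cpt1ab. Platyfish dlat was -0.0138 with DESeq2, -0.0137 with RLE factors and -0.0019 without the filter, and acaa2 -0.0146, -0.0145 and -0.0043. With 1 library left out, zebrafish ranges were -0.019 to 0.30 for acadl, -0.21 to 0.31 for acsl1a, -0.071 to 0.051 for cpt1aa, -0.075 to 0.16 for cpt1ab, -0.0084 to 0.66 for dld, -0.21 to 0.0020 for hadh, -0.24 to 0.70 for idh3g, -0.27 to 0.19 for lpin1, -0.34 to 0.11 for pdha1a and -0.57 to 1.02 for suclg2. Platyfish ranges were -0.14 to 0.14 for acaa2, -0.25 to 0.18 for the first acadl gene, -0.052 to 0.057 for dlat, -0.21 to 0.19 for dld, -0.047 to 0.078 for etfdh, -0.35 to 0.095 for the rarer idh2 copy, -0.18 to 0.0044 for idh3a, -0.10 to 0.74 for mdh1ab and -0.12 to 0.043 for pparaa.

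Standard errors in zebrafish were 0.40 to 0.80 for the low-count members suclg2, dld and acsl1a and 0.57 for the abundant pdk2a. They were 0.64 for pparab and 0.41 for idh3g.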

Other observations

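Genes of fatty acid supply and storage had median log2 fold changes above 0 in both species (0.19 over 14 zebrafish genes and 0.17 over 15 platyfish genes). The list holds genes of fatty acid synthesis and storage (acaca, gpam and dgat1a) beside lipases (lpl and pnpla2). Its median therefore says nothing about supply or release alone. Lipoprotein lipase, lpl, which frees fatty acids from circulating triglyceride, had 2002, 1426 and 1412 normalised counts in uninjured and 4935, 3727 and 4013 in cryoinjured zebrafish. It rose from 1613 ± 337 to 4225 ± 632 (SD, n = 3; log2 fold change 1.39 ± 0.17, edgeR adjusted p = 0.00601). Platyfish lpl had 124, 179 and 517 before and 153, 313 and 121 after injury, with overlap (-0.47 ± 0.59, adjusted p = 0.667). The difference between species was 1.87 ± 0.62 with gene copies summed and did not pass the test (adjusted p = 0.122).

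In platyfish the triglyceride lipase gene pnpla2 fell from 1316 ± 152 to 645 ± 83.0 normalised counts (SD, n = 3; -1.03 ± 0.15, edgeR adjusted p = 0.0162). Its libraries had 1370.2, 1434 and 1144 before and 551, 677 and 708 after injury. Zebrafish pnpla2 differed by -0.06 ± 0.24 (adjusted p = 0.940), and the difference of 0.99 ± 0.25 fell just short of the threshold (adjusted p = 0.0510). The lipase inhibitor gene angptl4, a PPAR target in mammals, rose in platyfish for 1 of its 2 genes, on chromosome 6, from 112 ± 48.6 to 516 ± 258 (2.18 ± 0.44, adjusted p = 0.0435). The other platyfish angptl4 gene, on chromosome 9, differed by 0.49 ± 0.30 (adjusted p = 0.360) and the zebrafish gene by 0.18 ± 0.29 (adjusted p = 0.802). With copies summed the angptl4 responses differed by -0.60 ± 0.45 (adjusted p = 0.504).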
